A study of Macaca fascicularis with 6 samples.

Results

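F-box proteins are the interchangeable substrate-binding subunits of SCF ubiquitin ligases. The genes described here are 64 of the 28164 genes in a count table from oocytes of the cynomolgus monkey (Macaca fascicularis). They were chosen by symbol, with no measured value in the rule, but with earlier results of these data known. They are 34 FBXO, 18 FBXL and 8 FBXW genes, named by those letters and a number, and the 4 genes SKP1, SKP2, CUL1 and RBX1. A further gene with a symbol of this form is not reported here. SKP2 is itself an F-box protein of the FBXL class, so the set holds 61 F-box genes and 3 genes for the shared subunits. The libraries fall into 3 groups of 2. IVM MII libraries came from oocytes that completed the first meiotic division and arrested at second metaphase in vitro, IVO MII libraries from oocytes that did so in vivo, and GV libraries from immature oocytes that still had the germinal vesicle, the nucleus of meiotic prophase. All groups were wild type, untreated per the labels and stripped of surrounding cells. The sources used here do not give how many oocytes and animals made a library, the animals' age, any ovarian stimulation or the culture medium. The p-values therefore measure the spread between these libraries, which may be technical.

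In an SCF ligase the cullin CUL1 is the scaffold. It holds the RING protein RBX1, which recruits the ubiquitin-charged enzyme, at one end, and the adaptor SKP1 with an F-box protein at the other. The F-box protein chooses the substrate: WD40 repeats mark the FBXW class, leucine-rich repeats the FBXL class, and other or no known repeats the FBXO class. In oocytes these ligases are known for timing meiosis through the turnover of cell cycle regulators, and the transcripts of a mature oocyte are inherited by the embryo.

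Library totals ran from 27707021 to 35515139 counts, and the 64 genes took between 0.383% and 0.563% of them. Levels are given as CPM, counts scaled to library size with TMM factors, and CPM per kb, which also divides by the exon length of the gene and is the only scale on which genes are compared with each other. Values after ± are the SD of n = 2 libraries for a level and the standard error of the fit for a log2 fold change, and every n below is 2 libraries per group. A gene is called where its adjusted p from edgeR's quasi-likelihood test was under 0.05 over 15815 tested genes. Priming of the cDNA was on poly(A) tails and no added RNA standard is named, so a different amount of a transcript, a different tail and a different total of RNA per oocyte cannot be told apart. Likewise fewer cells of a type and less RNA per cell cannot be told apart in these libraries. All 10 oocyte markers had counts in each library, GDF9 at 4005 to 5002 CPM in IVM MII, 2259 to 2645 CPM in IVO MII and 13618 to 14229 CPM in GV. Of 12 cumulus and granulosa cell markers, PTX3, INHA, FOXL2 and STAR were at 0 in every library, and the list summed to 80.9 and 79.5 CPM in IVM MII, 35.2 and 51.8 CPM in IVO MII and 38.6 and 32.5 CPM in GV. GREM1, secreted by cumulus cells, made much of the difference, at a mean of 29.0 CPM in IVM MII, 4.01 CPM in IVO MII and 3.97 CPM in GV. HAS2, at means of 18.7, 22.2 and 4.99 CPM in that order, was called higher in both MII groups than in GV. Of the 6 tested markers of this list, 2 were higher and 1 lower in IVM MII than in GV, against 25.6% and 24.7% of all tested genes. In IVO MII against GV 1 was higher and 1 lower, against 28.1% and 30.5%. Markers of theca, stroma and endothelium summed to 123 to 125, 60.3 to 61.1 and 301 to 347 CPM in IVM MII, IVO MII and GV, with CYP17A1 at 0 in all 6 libraries. Most of it came from VWF, at means of 103, 43.9 and 312 CPM, which was called lower in both MII groups than in GV. PECAM1 went the other way, at means of 19.4, 15.6 and 9.34 CPM, and was called higher in both. Of 6 blood and immune markers, 5 were in the table and 2, CD3E and HBB, were at 0 in all libraries, and the list summed to under 0.4 CPM in each. The part of other cells in the results below was not tested.

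A single gene, FBXW12, dominated the F-box transcripts of the GV oocyte. FBXW12 lies at chr2:103475855-103501282 of macFas5 on the plus strand, has 11 annotated exons, and codes for an F-box protein of the WD40 class that is little characterised. It stood at 266 and 336 CPM in IVM MII, 168 and 269 CPM in IVO MII and 2175 and 3776 CPM in GV. Every GV library lay far above all 4 MII libraries, while the IVM MII and IVO MII ranges overlapped. The log2 fold change was -3.31 ± 0.35, adjusted p = 2.82e-05 in IVM MII against GV, a 9.89-fold lower level, and -3.77 ± 0.36, adjusted p = 8.84e-06 in IVO MII against GV, a 13.6-fold lower level. Between IVM MII and IVO MII it was 0.46 ± 0.33, adjusted p = 0.323, not called.

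Summed over the 61 F-box genes, the pool came to 832 ± 48.5 CPM per kb in IVM MII, 909 ± 49.6 in IVO MII and 2362 ± 710 in GV. FBXW12 alone held 21.0% and 24.5% of this sum in the IVM MII libraries, 12.1% and 18.0% in IVO MII, and 73.8% and 83.2% in GV. Without it GV was the lowest group instead of the highest, and with TMM scaling IVO MII stayed above IVM MII. The other F-box genes summed to 642 ± 17 CPM per kb in IVM MII and 771 ± 4.52 in IVO MII. For GV this sum was 485 ± 3.86, with no overlap between groups on this scale. The order of the MII groups depends on the scaling. TMM factors were 1.22 and 1.04 for IVM MII libraries, against 0.934 and 1.00 for those of IVO MII. With these factors undone, the MII ranges would overlap both with and without FBXW12. GV would still be lowest without FBXW12. The 5 most abundant F-box genes of each library made 67.5 ± 1.24% of the pool in IVM MII, 61.9 ± 2.06% in IVO MII and 90.1 ± 2.91% in GV. Most of the family was scarce. In IVM MII, 10 of the 64 genes averaged at least 100 CPM and 15 averaged under 1 CPM. The numbers were 12 and 15 in IVO MII, and 7 and 13 in GV.

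**Figure D1:**
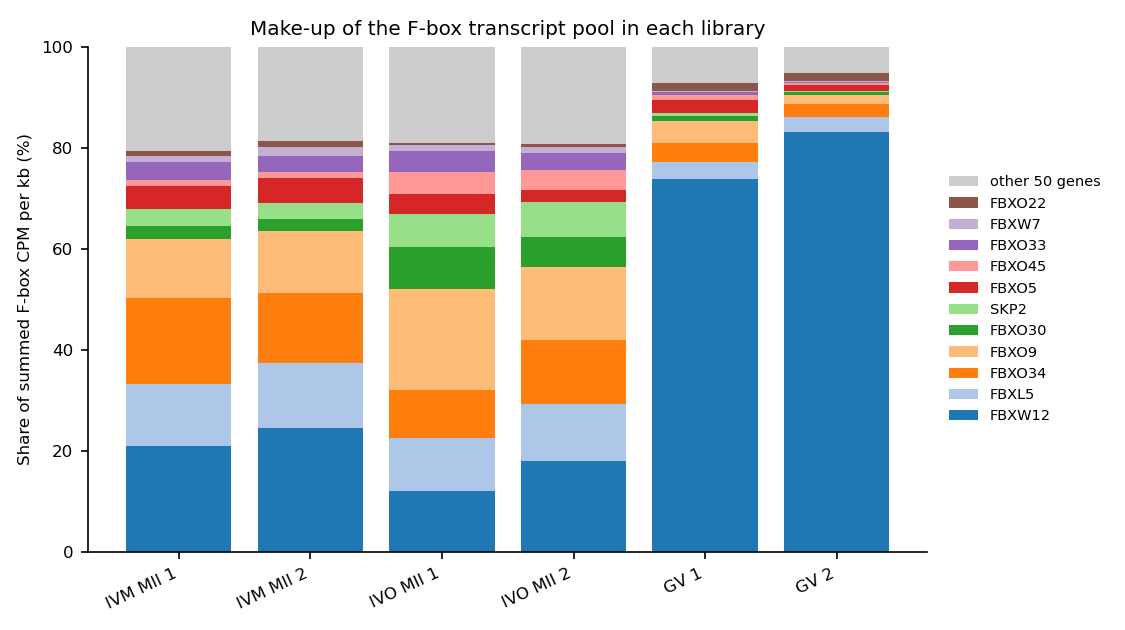
Share of the summed F-box CPM per kb (%) held by 11 named genes and by the other 50 F-box genes in each of the 6 libraries. FBXW12 fills 73.8% and 83.2% of the GV bars and between 12.1% and 24.5% of the MII bars, where FBXL5, FBXO34 and FBXO9 take larger parts.

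Behind FBXW12 the abundant F-box genes were FBXL5, FBXO34 and FBXO9, each within the 6 highest F-box and SCF genes by CPM per kb in all 3 groups. FBXL5, the iron-sensing F-box protein that targets the iron regulatory protein IREB2, averaged 104 ± 9.52 CPM per kb in IVM MII, 98.2 ± 10.9 in IVO MII and 75.3 ± 17.5 in GV. Its CPM were 366 and 416 CPM in IVM MII, 339 and 397 CPM in IVO MII and 236 and 329 CPM in GV, and it was called in no comparison. FBXO34, known in mouse oocytes for a role in meiotic progression, stood at 495 and 440 CPM in IVM MII, 303 and 442 CPM in IVO MII and 264 and 250 CPM in GV. Both IVM MII libraries exceeded both GV libraries, with a log2 fold change of 0.86 ± 0.24, adjusted p = 0.0121, a call lost under 3 alternatives, while 0.53 ± 0.24, adjusted p = 0.0778 in IVO MII against GV was not called. FBXO9, which in human cells acts on the kinase cofactors TEL2 and TTI1, had 248 and 281 CPM in IVM MII, 466 and 362 CPM in IVO MII and 214 and 148 CPM in GV. Only the comparison of IVO MII with GV called it (1.19 ± 0.25, adjusted p = 0.00175), and -0.65 ± 0.25, adjusted p = 0.0798 between IVM MII and IVO MII missed the threshold. FBXO5 (EMI1), an inhibitor of the anaphase-promoting complex, averaged 168 ± 17.3 CPM in IVM MII, 121 ± 34.2 CPM in IVO MII and 176 ± 52.0 CPM in GV, with overlapping GV and MII ranges and no call.

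The subunits that every SCF ligase shares did not move together. SKP1, the adaptor at chr6:133175294-133194537, stood at 257 and 355 CPM in IVM MII, 175 and 145 CPM in IVO MII and 510 and 461 CPM in GV. The 3 groups did not overlap, and SKP1 was lowest in IVO MII and highest in GV. It was 1.92-fold higher in IVM MII than in IVO MII (log2 fold change 0.94 ± 0.24, adjusted p = 0.0157), and fell in both MII groups relative to GV (IVM MII -0.67 ± 0.24, adjusted p = 0.0370, IVO MII -1.60 ± 0.25, adjusted p = 0.000198). CUL1, the scaffold at chr3:181717244-181822020, ran the other way and was highest in IVO MII, at 440 and 486 CPM in IVM MII, 1072 and 731 CPM in IVO MII and 469 and 328 CPM in GV. IVO MII lay above both other groups, which overlapped. CUL1 was lower in IVM MII than in IVO MII (-0.96 ± 0.27, adjusted p = 0.0243) and higher in IVO MII than in GV (1.18 ± 0.27, adjusted p = 0.00312), while 0.22 ± 0.27, adjusted p = 0.530 in IVM MII against GV was not called.

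RBX1, the RING subunit at chr10:10179558-10203525, stood at 50.1 and 69.9 CPM in IVM MII, 51.9 and 44.3 CPM in IVO MII and 60.8 and 71.7 CPM in GV and was called in no comparison. The log2 fold changes of RBX1 were 0.32 ± 0.24 in IVM MII against IVO MII, -0.14 ± 0.23 in IVM MII against GV and -0.46 ± 0.24 in IVO MII against GV, with adjusted p = 0.348, 0.635 and 0.112. Scaling by library totals turned the sign of RBX1 in IVM MII against GV to 0.14. Per kb, SKP1 averaged 385 ± 87.7, 201 ± 26.4 and 610 ± 44.1 CPM in IVM MII, IVO MII and GV, CUL1 92.8 ± 6.48, 181 ± 48.4 and 79.9 ± 19.9, and RBX1 43.9 ± 10.3, 35.2 ± 3.90 and 48.5 ± 5.63. So SKP1 transcripts outnumbered those of CUL1 in IVM MII and GV beyond the spread of the libraries, while in IVO MII their ranges overlapped, and RBX1 was the scarcest of the shared subunits in every group. SKP1 is a short gene, with 795 annotated exon bases, and may share reads with processed copies. Its call in IVM MII against IVO MII was lost with the gene length trend removed (0.63, adjusted p = 0.0642), without IVM MII replicate 2 (0.69, adjusted p = 0.123) and without IVO MII replicate 2 (0.82, adjusted p = 0.0858), and its call in IVM MII against GV under 5 alternatives, with adjusted p up to 0.724.

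**Figure D2:**
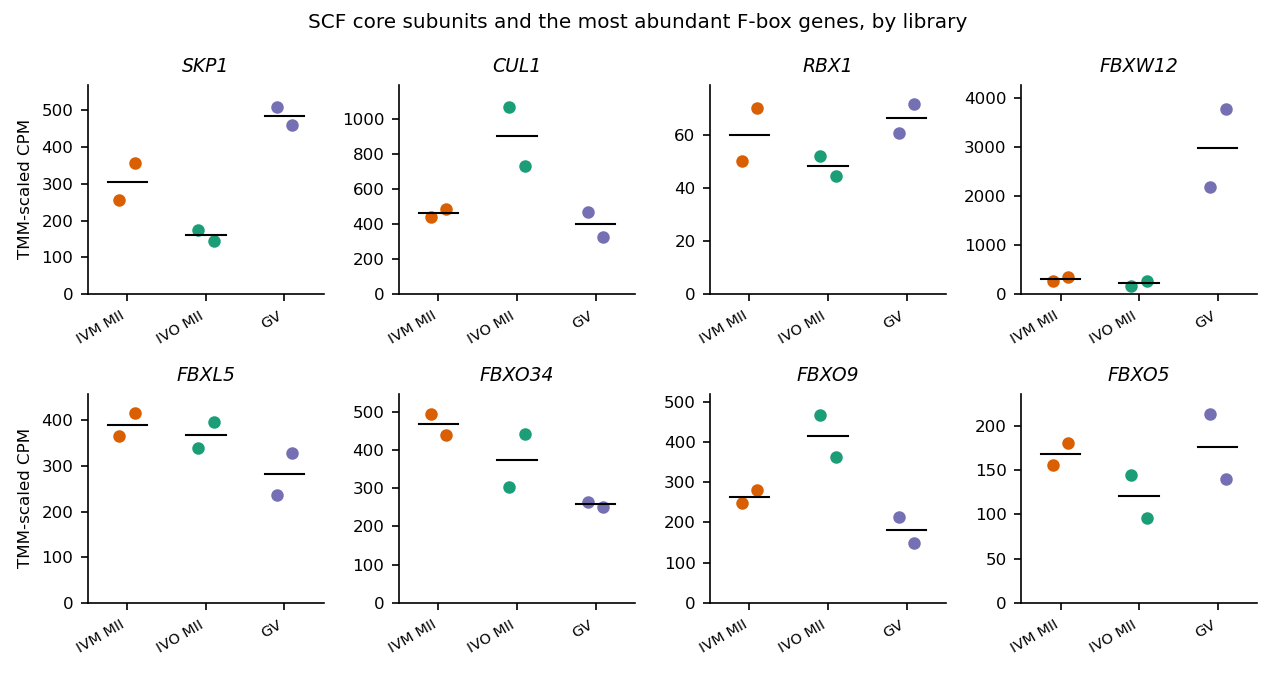
TMM-scaled CPM of SKP1, CUL1, RBX1 and 5 abundant F-box genes in IVM MII, IVO MII and GV, with a point per library and a bar at the mean of 2. SKP1 is lowest in IVO MII, with IVM MII between it and GV, CUL1 is high in IVO MII, and FBXW12 is high in GV.

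Maturation in culture was set against maturation in the animal, at the same meiotic stage, by comparing IVM MII with IVO MII libraries. Of the 57 genes of the set with enough counts for the test, edgeR called 4 higher and 7 lower in IVM MII, or 19.3%, against 24.6% of all 15815 tested genes (14.3% higher and 10.3% lower). The set as a whole was thus called no more often than genes at large, and its median log2 fold change was -0.24, against 0.02 over all tested genes. The 2 groups' libraries did not overlap in 31 of the 57, against 63% of all tested genes. The split leans on the scaling. With library totals in place of TMM factors, which moved the median of all genes to 0.24, 6 were higher and 4 lower, beside 2803 and 894 of all 15815 tested genes. DESeq2 gave 3 higher and 9 lower, beside 2100 and 2136 of all. Removing the trend with gene length gave 1 higher and 8 lower, beside 1975 and 2073 of all. Lower levels of FBXL21, FBXO45, FBXO30 and SKP2 in IVM MII were the 4 calls that held under all 14 alternative settings.

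SKP2 directs the destruction of the cyclin-dependent kinase inhibitor CDKN1B with the help of CKS1B, and is the best known F-box regulator of the cell cycle. It lies at chr6:36565618-36597537. SKP2 had 196 and 204 CPM in IVM MII, 431 and 486 CPM in IVO MII and 73.9 and 59.9 CPM in GV. The 3 groups were wide apart, GV lowest and IVO MII highest. IVM MII was 2.29-fold below IVO MII (-1.20 ± 0.22, adjusted p = 0.00270), and both MII groups rose over GV, by 2.99-fold in IVM MII (1.58 ± 0.23, adjusted p = 0.000196) and 6.85-fold in IVO MII (2.78 ± 0.23, adjusted p = 3.76e-06). The listed partner CKS1B had 5974 and 10198 CPM in IVM MII, 10499 and 7999 CPM in IVO MII and 12418 and 12446 CPM in GV, with overlapping MII ranges. The substrate's own transcript CDKN1B stayed at or under 0.301 CPM in every library.

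FBXO45 works mainly with the RING protein MYCBP2 rather than with CUL1, and is known for roles in neurons. At chr2:848168-871916, it had 39.7 and 43.2 CPM in IVM MII, 153 and 148 CPM in IVO MII and 63.1 and 50.9 CPM in GV. Both IVO MII libraries stood far above the other 4, and IVM MII lay just under GV. The level in IVM MII was 3.64-fold lower than in IVO MII (-1.86 ± 0.22, adjusted p = 0.000170). IVO MII rose over GV by 2.64-fold (1.40 ± 0.22, adjusted p = 0.000208), and IVM MII against GV was not called (-0.46 ± 0.21, adjusted p = 0.0910).

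FBXO30, known in mouse oocytes for a role in chromosome segregation, lies at chr4:51596959-51613519. Its levels were 92.5 and 96.8 CPM in IVM MII, 320 and 248 CPM in IVO MII and 80.6 and 54.9 CPM in GV. Again IVO MII alone was high, and IVM MII lay a little above GV without overlap. IVM MII was 3.00-fold below IVO MII (-1.58 ± 0.25, adjusted p = 0.00106), IVO MII was 4.19-fold above GV (2.07 ± 0.25, adjusted p = 4.73e-05), and 0.48 ± 0.25, adjusted p = 0.120 in IVM MII against GV was not called.

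FBXL21 binds the cryptochromes, repressors of the circadian clock. FBXL21, at chr6:134998591-135011476, had 10.9 and 20.0 CPM in IVM MII, 42.4 and 76.7 CPM in IVO MII and 21.7 and 20.0 CPM in GV. IVO MII lay above the other groups, which overlapped, and the replicates of each MII group lay well apart. Its log2 fold change was -1.95 ± 0.34, adjusted p = 0.00182 in IVM MII against IVO MII and 1.52 ± 0.33, adjusted p = 0.00216 in IVO MII against GV.

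The other 3 lower calls were smaller. CUL1 is described above. FBXO28, an F-box protein known to act on MYC in human cells, had 4.19 and 4.77 CPM in IVM MII, 9.04 and 9.44 CPM in IVO MII and 5.31 and 5.21 CPM in GV. FBXO8, which carries a Sec7 domain, had 6.02 and 8.01 CPM in IVM MII, 10.9 and 14.7 CPM in IVO MII and 12.7 and 10.5 CPM in GV. IVM MII lay below IVO MII in both genes without overlap (-1.04 ± 0.27, adjusted p = 0.0170 for FBXO28 and -0.87 ± 0.28, adjusted p = 0.0426 for FBXO8). FBXO8 shares 14.8% of its exon bases with CEP44 on the other strand, and strand was not used in counting, so reads of the pair cannot be told apart. The FBXO28 and CUL1 calls were each lost under 4 of the alternatives and that of FBXO8 under 8, with adjusted p up to 0.0974, 0.166 and 0.232.

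On the higher side, besides SKP1, stood FBXL2, FBXO22 and FBXO48. FBXL2, a lipid-anchored F-box protein, had 30.3 and 37.9 CPM in IVM MII, 18.3 and 16.9 CPM in IVO MII and 29.9 and 33.4 CPM in GV, so that IVO MII was low and IVM MII overlapped GV. Its log2 fold change was 0.95 ± 0.23, adjusted p = 0.0108 in IVM MII against IVO MII and -0.85 ± 0.23, adjusted p = 0.00731 in IVO MII against GV, the second lost under 2 alternatives. A second row of the table, on an unplaced scaffold, is annotated as a copy of FBXL2 and held 269 and 252 counts in IVM MII, 111 and 121 in IVO MII and 169 and 206 in GV, so reads may be split between both. FBXO22, which targets histone demethylases of the KDM4 family, had 10.2 and 15.2 CPM in IVM MII, 5.29 and 7.51 CPM in IVO MII and 40.9 and 62.7 CPM in GV. It was 1.98-fold higher in IVM MII than in IVO MII (0.98 ± 0.30, adjusted p = 0.0345), and far below GV in both MII groups (IVM MII -2.03 ± 0.30, adjusted p = 0.000269, IVO MII -3.01 ± 0.32, adjusted p = 1.79e-05). FBXO48 was scarce, at 50 and 56 counts in IVM MII, 13 and 11 in IVO MII and 22 and 20 in GV, or 1.16 and 1.59 CPM in IVM MII, 0.502 and 0.374 CPM in IVO MII and 0.749 and 0.676 CPM in GV. Its difference of 1.64 ± 0.51, adjusted p = 0.0350 was lost under 9 alternatives, among them DESeq2 at adjusted p = 0.0865. The FBXO22 call was lost under 3 alternatives, with adjusted p up to 0.231, and the FBXL2 call without IVM MII replicate 2, at 0.0846. Without IVM MII replicate 2, 4 of the 11 calls were kept and 7 lost. Over all tested genes 14.3% were higher in IVM MII than in IVO MII. Of 6 tested cumulus and granulosa markers, TNFAIP6 and GREM1 were also higher in IVM MII than in IVO MII, as were 4 of 10 oocyte markers. Their part in these differences was not tested.

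**Figure D3:**
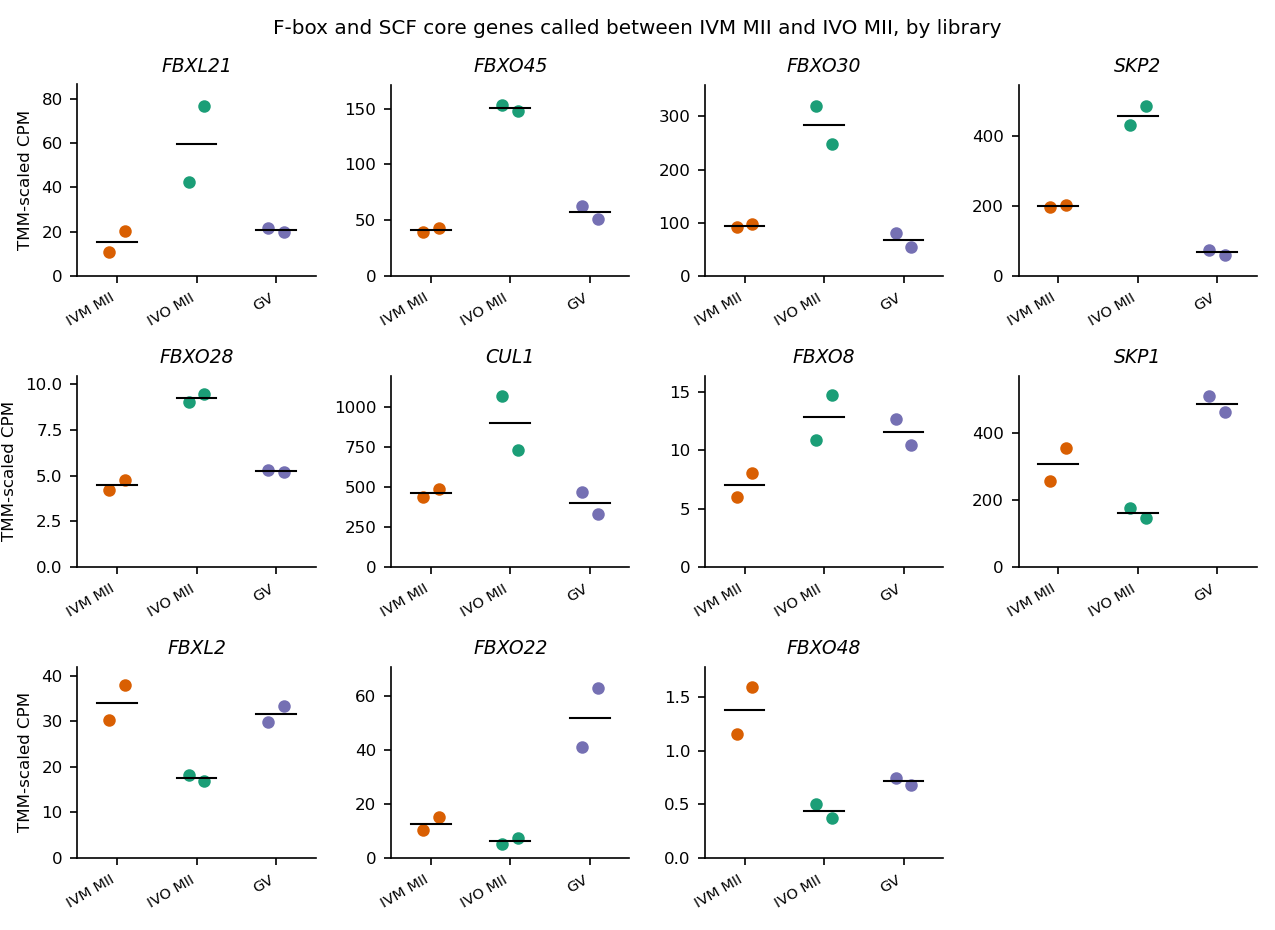
TMM-scaled CPM per library of the 11 F-box and SCF core genes called between IVM MII and IVO MII, with GV beside them and bars at the mean of 2 libraries. In FBXL21, FBXO45, FBXO30, CUL1 and FBXO28 the IVO MII libraries stand above both other groups, while SKP1 and FBXO22 are highest in GV and lowest in IVO MII.

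Against GV, the comparisons ask which transcripts differed once maturation was complete. In IVM MII, 13 of the 57 tested genes were higher and 11 lower than in GV, or 42.1%, against 50.3% of all tested genes (25.6% higher and 24.7% lower), with a median log2 fold change of 0.05 against 0.06 over all. With library totals, which moved the median of all genes to 0.35, the split became 20 higher and 8 lower in the set, beside 5272 higher and 3004 lower of all 15815 tested genes. In IVO MII, 18 were higher and 11 lower than in GV, or 50.9%, against 58.5% of all tested genes (28.1% higher and 30.5% lower), with a median of 0.30 against -0.07. Libraries did not overlap between the groups in 40 of the 57 in IVM MII against GV and in 46 in IVO MII against GV, against 77.8% and 80.2% of all tested genes. Both comparisons use the same GV libraries, so they do not check each other. The 10 oocyte markers gave 1 higher and 6 lower calls for IVM MII over GV and 1 higher and 8 lower calls for IVO MII over GV. A link of these with the values below was not tested. The number of genes of the set called in at least 1 of the 3 comparisons was 34, and 23 of its tested genes were called in none. The matching share of all tested genes was not computed, so these counts do not set the set apart from genes at large. Of the 24 calls in IVM MII against GV, 16 held under all alternatives, and of the 29 in IVO MII against GV, 19 did.

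Among the genes that fell, FBXW12 and FBXO22 were described above. FBXW9 had 0.440 and 0.227 CPM in IVM MII, 0.696 and 0.917 CPM in IVO MII and 2.11 and 4.43 CPM in GV, and FBXL8 0.208 and 0.0852 CPM in IVM MII, 0.232 and 0.0340 CPM in IVO MII and 0.613 and 1.76 CPM in GV. Every MII library of both genes lay below both GV libraries, but GV 2 stood far above GV 1 in both and counts were few, 9 and 3 for FBXL8 in IVM MII, 6 and 1 in IVO MII and 18 and 52 in GV. The log2 fold changes of FBXW9 were -3.26 ± 0.54, adjusted p = 0.000553 in IVM MII and -2.01 ± 0.51, adjusted p = 0.00518 in IVO MII, and those of FBXL8 -2.95 ± 0.82, adjusted p = 0.0111 and -3.17 ± 0.89, adjusted p = 0.00903. Without GV replicate 2, FBXL8 was no longer called in IVM MII (-2.01, adjusted p = 0.226) or IVO MII (-2.21, adjusted p = 0.181), nor FBXW9 in IVO MII (-1.38, adjusted p = 0.109), and FBXW9 in IVM MII came to -2.63. Without IVM MII replicate 1, FBXL8 in IVM MII moved to -3.69, and without IVM MII replicate 2 its call was lost (-2.47, adjusted p = 0.0810). In IVO MII, FBXL8 came to -4.97 without IVO MII replicate 1 and to -2.32 without IVO MII replicate 2. FBXL8 also shares 6.5% of its exon bases with TRADD on the other strand.

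FBXL15, which targets the ligase SMURF1 of BMP signalling, had 1.83 and 0.938 CPM in IVM MII, 2.01 and 3.26 CPM in IVO MII and 5.58 and 9.30 CPM in GV. The MII libraries lay below GV throughout, with log2 fold changes of -2.41 ± 0.43, adjusted p = 0.000883 in IVM MII and -1.49 ± 0.42, adjusted p = 0.00933 in IVO MII. FBXO41, known from neurons in mouse, had 0.347 and 0.739 CPM in IVM MII, 1.43 and 1.29 CPM in IVO MII and 2.32 and 2.57 CPM in GV. IVM MII fell by 4.53-fold (-2.18 ± 0.47, adjusted p = 0.00275), while IVO MII at -0.84 ± 0.45, adjusted p = 0.125 was not called, nor was the difference between the MII groups (-1.33 ± 0.48, adjusted p = 0.0619). Without IVM MII replicate 2, the FBXO41 value against GV was -2.79. The IVO MII call of FBXL15 was lost with the gene length trend removed, without GV replicate 2 and without IVO MII replicate 1, with adjusted p up to 0.109.

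The remaining genes that fell in both MII groups were moderately expressed. FBXO7, a partner of the proteasome regulator PI31 that is mutated in a form of parkinsonism, averaged 16.7 ± 2.17 CPM in IVM MII, 19.7 ± 7.59 CPM in IVO MII and 49.4 ± 9.10 CPM in GV (IVM MII -1.56 ± 0.29, adjusted p = 0.00105, IVO MII -1.33 ± 0.29, adjusted p = 0.00200). FBXO25, a relative of the muscle F-box protein FBXO32, averaged 17.1 ± 1.26 CPM in IVM MII, 16.8 ± 2.02 CPM in IVO MII and 39.2 ± 4.40 CPM in GV (IVM MII -1.20 ± 0.23, adjusted p = 0.00133, IVO MII -1.22 ± 0.23, adjusted p = 0.000816). FBXO38, known in T cells for acting on the receptor PD-1, averaged 4.73 ± 0.503 CPM in IVM MII, 4.27 ± 1.72 CPM in IVO MII and 10.1 ± 0.768 CPM in GV (IVM MII -1.09 ± 0.32, adjusted p = 0.0149, IVO MII -1.24 ± 0.33, adjusted p = 0.00655). All libraries of these 3 genes were lower in MII than in GV. The FBXO38 calls were lost under 3 alternatives in IVM MII and 1 in IVO MII. FBXO6, which binds glycoproteins, had 6.57 and 2.70 CPM in IVM MII, 4.02 and 7.58 CPM in IVO MII and 8.55 and 24.7 CPM in GV, with the replicates of each group wide apart. The log2 fold change was -1.83 ± 0.52, adjusted p = 0.0120 in IVM MII and -1.51 ± 0.52, adjusted p = 0.0249 in IVO MII, but -0.87, adjusted p = 0.207 and -0.55, adjusted p = 0.409 without GV replicate 2, and -2.58 in IVM MII without IVM MII replicate 1. Its calls were lost under 6 alternatives in each comparison, among them -1.32, adjusted p = 0.112 without IVM MII replicate 2 and -1.12, adjusted p = 0.310 without IVO MII replicate 1.

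Of the genes that rose, SKP2, FBXO30, FBXO45, FBXL21, FBXO34, FBXO9, FBXO28 and CUL1 are given above. FBXL7, known to act on the mitotic kinase Aurora A, had 36.3 and 28.9 CPM in IVM MII, 29.5 and 32.7 CPM in IVO MII and 7.83 and 6.49 CPM in GV. Both MII groups stood far above GV and overlapped each other, at 2.19 ± 0.25, adjusted p = 4.15e-05 in IVM MII and 2.12 ± 0.25, adjusted p = 3.36e-05 in IVO MII. FBXL6 had 15.6 and 7.10 CPM in IVM MII, 16.8 and 21.4 CPM in IVO MII and 3.23 and 3.52 CPM in GV, with all MII libraries above GV and a wide IVM MII pair. Its log2 fold change was 1.75 ± 0.36, adjusted p = 0.00201 in IVM MII, or 1.11 without IVM MII replicate 1, and 2.50 ± 0.37, adjusted p = 0.000150 in IVO MII. FBXO4, which binds cyclin D1, had 15.6 and 15.7 CPM in IVM MII, 4.41 and 13.2 CPM in IVO MII and 3.13 and 4.70 CPM in GV. IVM MII was evenly high, at 2.00 ± 0.43, adjusted p = 0.00274, whereas IVO MII 1 fell within the GV range and IVO MII 2 near IVM MII. In IVO MII the value was 1.17 ± 0.43, adjusted p = 0.0347, but 1.76 without IVO MII replicate 1 and 0.18, adjusted p = 0.696 without IVO MII replicate 2.

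FBXW7, which takes cyclin E and MYC to the proteasome, averaged 90.0 ± 30.4 CPM in IVM MII, 75.0 ± 9.43 CPM in IVO MII and 31.2 ± 0.942 CPM in GV and rose in both MII groups (IVM MII 1.53 ± 0.26, adjusted p = 0.000630, IVO MII 1.27 ± 0.26, adjusted p = 0.00135). FBXL20, known in mouse for the presynaptic protein RIM1, averaged 38.8 ± 9.12 CPM in IVM MII, 36.9 ± 3.11 CPM in IVO MII and 10.3 ± 0.743 CPM in GV (IVM MII 1.92 ± 0.25, adjusted p = 0.000105, IVO MII 1.85 ± 0.25, adjusted p = 8.21e-05). FBXO33, which acts on the RNA-binding protein YB-1, averaged 105 ± 3.32 CPM in IVM MII, 133 ± 11.3 CPM in IVO MII and 35.7 ± 9.51 CPM in GV (IVM MII 1.56 ± 0.24, adjusted p = 0.000331, IVO MII 1.90 ± 0.24, adjusted p = 5.86e-05). These 3 genes held their calls under all alternatives, and in none of them were the MII groups called different. FBXO15, a marker of mouse embryonic stem cells, averaged 18.7 ± 0.818 CPM in IVM MII, 14.8 ± 0.501 CPM in IVO MII and 6.09 ± 0.523 CPM in GV (IVM MII 1.61 ± 0.25, adjusted p = 0.000322, IVO MII 1.28 ± 0.25, adjusted p = 0.000946). FBXL18 was low, at 2.87 ± 0.722 CPM in IVM MII, 3.56 ± 0.862 CPM in IVO MII and 0.899 ± 0.0197 CPM in GV (IVM MII 1.67 ± 0.40, adjusted p = 0.00498, IVO MII 1.98 ± 0.41, adjusted p = 0.00138). FBXL4, a mitochondrial protein, had the smallest called changes against GV, at 22.1 ± 0.252 CPM in IVM MII, 22.1 ± 1.70 CPM in IVO MII and 14.6 ± 0.722 CPM in GV (IVM MII 0.60 ± 0.23, adjusted p = 0.0434, IVO MII 0.60 ± 0.23, adjusted p = 0.0390). Its calls were lost under 11 alternatives in IVM MII and 8 in IVO MII.

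FBXO47, known from meiotic prophase in mouse, was called only in IVM MII against GV, at 2.36 and 5.31 CPM in IVM MII, 1.66 and 1.66 CPM in IVO MII and 1.57 and 1.49 CPM in GV. The value of 1.32 ± 0.44, adjusted p = 0.0248 came to 0.64, adjusted p = 0.273 without IVM MII replicate 2, and the IVM MII against IVO MII difference was not called (1.20 ± 0.43, adjusted p = 0.0638). FBXW2 was called only in IVO MII against GV, at 26.7 ± 6.70 CPM in IVM MII, 38.7 ± 16.7 CPM in IVO MII and 18.8 ± 6.22 CPM in GV (1.04 ± 0.34, adjusted p = 0.0187), and was not called between IVM MII and IVO MII (-0.54 ± 0.33, adjusted p = 0.261). Its call was lost under 4 alternatives, with adjusted p up to 0.175, and that of FBXO28 in IVO MII against GV (0.81 ± 0.27, adjusted p = 0.0234) under 5, with adjusted p up to 0.116.

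**Figure D4:**
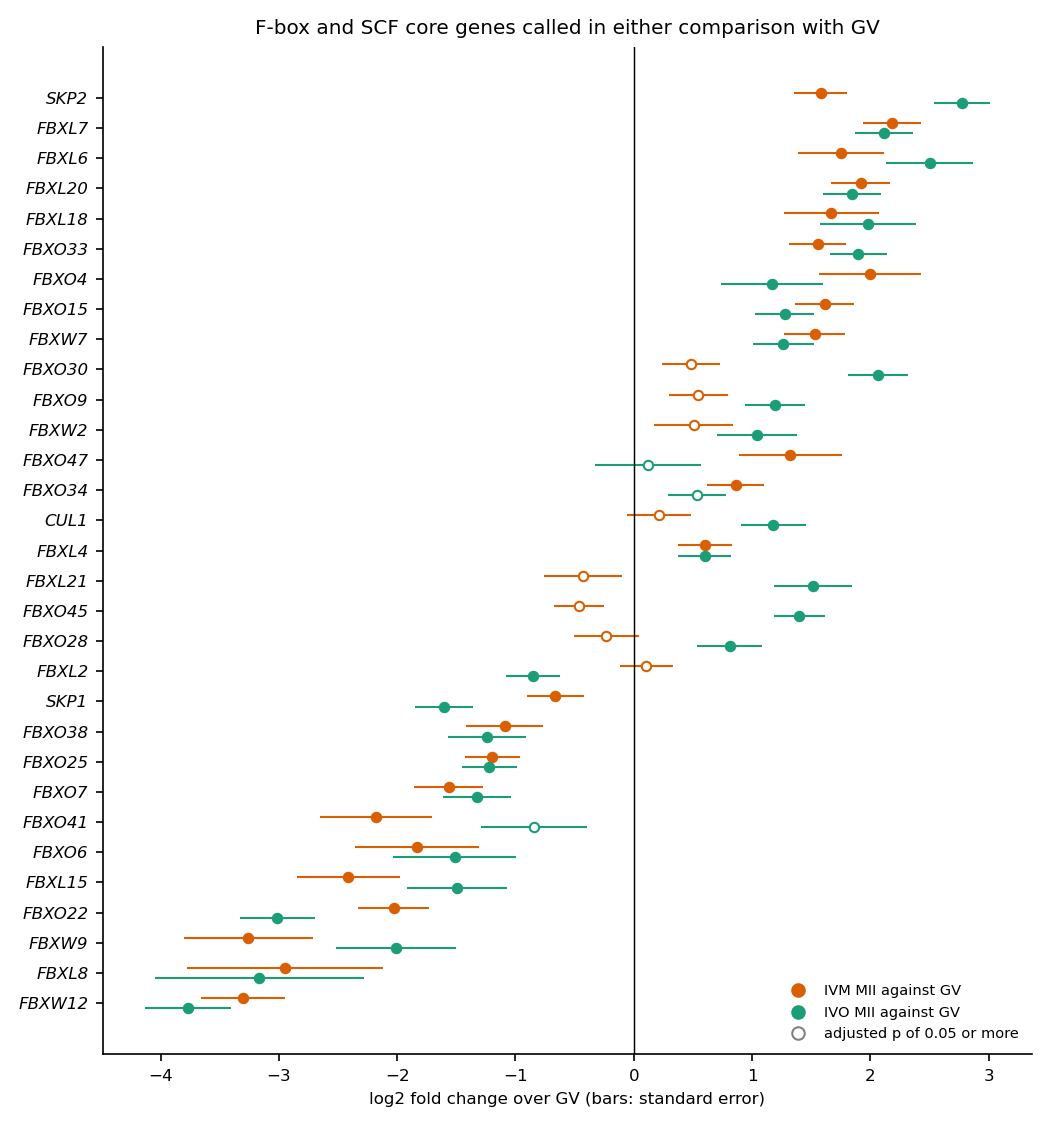
Log2 fold change over GV, with its standard error, of 31 of the 32 F-box and SCF core genes called in at least 1 comparison with GV, IVM MII drawn above IVO MII for each gene. Filled points have an adjusted p under 0.05 and open points do not. SKP2, FBXO30, FBXL21 and FBXO45 lie further right in IVO MII, FBXO22 and SKP1 further left in IVO MII, and FBXW12 lies at the foot with -3.31 and -3.77.

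By class, 5 FBXO genes rose and 6 fell of 29 tested in IVM MII against GV, 7 FBXL genes rose and 2 fell of 18 with SKP2 counted among them, and 1 FBXW gene rose and 2 fell of 7. Of all tested genes 25.6% rose and 24.7% fell in that comparison. In IVO MII against GV the FBXO class had 7 higher and 5 lower, the FBXL class 8 and 3, and the FBXW class 2 and 2, against 28.1% higher and 30.5% lower of all tested genes. The classes were similar in exon length, with medians of 3421 bases for FBXO, 3528 for FBXL and 3549 for FBXW. No test set one class against another.

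Genes called in no comparison include several with well known substrates. FBXW11, one of the paired beta-TrCP proteins that target beta-catenin, averaged 7.57 ± 0.0609 CPM in IVM MII, 7.32 ± 1.33 CPM in IVO MII and 4.73 ± 0.00128 CPM in GV. FBXO11, known for acting on BCL6 in lymphoid cells, averaged 17.6 ± 5.75 CPM in IVM MII, 15.7 ± 2.76 CPM in IVO MII and 11.4 ± 0.727 CPM in GV. FBXO3, higher in both IVM MII libraries than in the other 4, averaged 68.8 ± 11.4 CPM in IVM MII, 44.6 ± 8.61 CPM in IVO MII and 46.5 ± 4.81 CPM in GV, with adjusted p = 0.0715 against IVO MII and 0.0630 against GV. FBXO32, the muscle atrophy gene atrogin-1, averaged 1.63 ± 0.145 CPM in IVM MII, 3.45 ± 0.785 CPM in IVO MII and 1.99 ± 0.225 CPM in GV, with -1.08 ± 0.37, adjusted p = 0.0529 in IVM MII against IVO MII. FBXO42, FBXO10, FBXO18, FBXO27, FBXO46, FBXW4 and FBXL22 averaged between 1.83 and 6.70 CPM in every group, and FBXW8, the partner of CUL7, averaged 2.13 ± 0.323 CPM in IVM MII, 1.93 ± 0.381 CPM in IVO MII and 2.38 ± 0.0114 CPM in GV. FBXL12, FBXL13, FBXL14, FBXL16, FBXL17, FBXO21, FBXO24 and FBXO31 had group means between 0.235 and 2.22 CPM. An uncalled difference does not show equal levels at this depth and n.

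The 7 untested genes were FBXO2, FBXO16, FBXO39, FBXO40, FBXO44, FBXL19 and FBXW5, with 8 to 40 counts over all 6 libraries. FBXO2 and FBXO44, glycoprotein binders like FBXO6, lie beside it on chromosome 1 of macFas5 between 216451190 and 216478597, yet totalled 26 and 17 counts over 6 libraries. FBXO6 had 284 and 95 in IVM MII, 104 and 223 in IVO MII and 251 and 729 in GV. FBXL19 shares 35.9% of its exon bases with ORAI3 on the same strand.

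The COP9 signalosome, which strips the activating NEDD8 tag from cullins, was lower in MII oocytes across nearly all its subunits. In IVM MII 8 of its 10 genes were lower than in GV, against 24.7% of all tested genes. All 10 log2 fold changes were below 0, with a median of -1.85 against 0.06 over all tested genes. In IVO MII 9 of 10 were lower, against 30.5% of all tested genes, and again all 10 values were below 0, with a median of -2.28 against -0.07. COPS5, the catalytic subunit, had 3.98 and 4.60 CPM in IVM MII, 9.74 and 6.22 CPM in IVO MII and 83.9 and 73.3 CPM in GV (IVM MII -4.19 ± 0.29, adjusted p = 1.57e-06, IVO MII -3.30 ± 0.28, adjusted p = 3.65e-06). COPS3 had 50.6 and 61.4 CPM in IVM MII, 78.6 and 69.0 CPM in IVO MII and 617 and 546 CPM in GV (IVM MII -3.38 ± 0.24, adjusted p = 1.98e-06, IVO MII -2.98 ± 0.24, adjusted p = 2.49e-06). COPS9 had 3.70 and 5.57 CPM in IVM MII, 1.93 and 2.62 CPM in IVO MII and 62.3 and 69.6 CPM in GV (IVM MII -3.83 ± 0.29, adjusted p = 2.75e-06, IVO MII -4.85 ± 0.31, adjusted p = 6.76e-07). All 4 MII libraries were far below GV in each of these 3 genes. COPS7B was the exception in both, at 94.8 and 89.2 CPM in IVM MII, 100 and 96.0 CPM in IVO MII and 145 and 102 CPM in GV, with -0.43 ± 0.23, adjusted p = 0.140 in IVM MII and -0.33 ± 0.23, adjusted p = 0.232 in IVO MII. COPS7A was not called in IVM MII (-0.63 ± 0.43, adjusted p = 0.233). Between IVM MII and IVO MII, COPS7A (1.75 ± 0.46, adjusted p = 0.0165) and COPS9 (1.02 ± 0.29, adjusted p = 0.0233) were higher and COPS5 lower (-0.89 ± 0.27, adjusted p = 0.0302), with a list median of 0.09 against 0.02. Those 3 differences were lost under 2, 4 and 5 alternatives, with adjusted p up to 0.151, 0.169 and 0.241, and COPS7A came to 1.05 without IVM MII replicate 1.

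The neddylation and cullin exchange genes, which put that tag on and swap F-box modules, were mixed. In IVM MII against GV 2 of 14 were higher and 4 lower, against 25.6% and 24.7% of all tested genes. In IVO MII against GV 3 were higher and 4 lower, against 28.1% and 30.5%. The medians were 0.11 in IVM MII and 0.31 in IVO MII, against 0.06 and -0.07 over all tested genes. Between IVM MII and IVO MII, 2 were higher and 1 lower, against 14.3% and 10.3% of all tested genes, with a median of -0.19 against 0.02. NEDD8 itself had 16.7 and 21.9 CPM in IVM MII, 5.18 and 6.59 CPM in IVO MII and 52.1 and 57.1 CPM in GV, with no overlap between groups. It fell by 2.82-fold in IVM MII (-1.50 ± 0.24, adjusted p = 0.000466) and 9.26-fold in IVO MII (-3.21 ± 0.26, adjusted p = 2.97e-06), and was 3.28-fold higher in IVM MII than in IVO MII (1.71 ± 0.25, adjusted p = 0.000665). Of the listed NEDD8-conjugating enzymes, UBE2F had 4.05 and 4.04 CPM in IVM MII, 5.22 and 5.20 CPM in IVO MII and 23.8 and 39.0 CPM in GV. The NEDD8 protease SENP8 had 30.7 and 41.0 CPM in IVM MII, 27.1 and 22.5 CPM in IVO MII and 135 and 137 CPM in GV. Both were lower in each MII group than in GV (UBE2F -2.96 ± 0.30, adjusted p = 1.83e-05 in IVM MII and -2.59 ± 0.30, adjusted p = 2.96e-05 in IVO MII, SENP8 -1.92 ± 0.23, adjusted p = 6.89e-05 and -2.46 ± 0.24, adjusted p = 9.57e-06). The other listed conjugating enzyme, UBE2M, was scarce, at 0.255 and 0.0568 CPM in IVM MII, 0.386 and 0.238 CPM in IVO MII and 0.885 and 0.541 CPM in GV. The NEDD8-activating subunit UBA3 was higher in both (IVM MII 1.10 ± 0.21, adjusted p = 0.00131, IVO MII 0.59 ± 0.21, adjusted p = 0.0291). The UBA3 call in IVO MII was lost under 4 alternatives, with adjusted p up to 0.269. CAND1, the exchange factor, had 46.7 and 55.0 CPM in IVM MII, 78.7 and 47.7 CPM in IVO MII and 50.7 and 35.1 CPM in GV and no call.

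**Figure D5:**
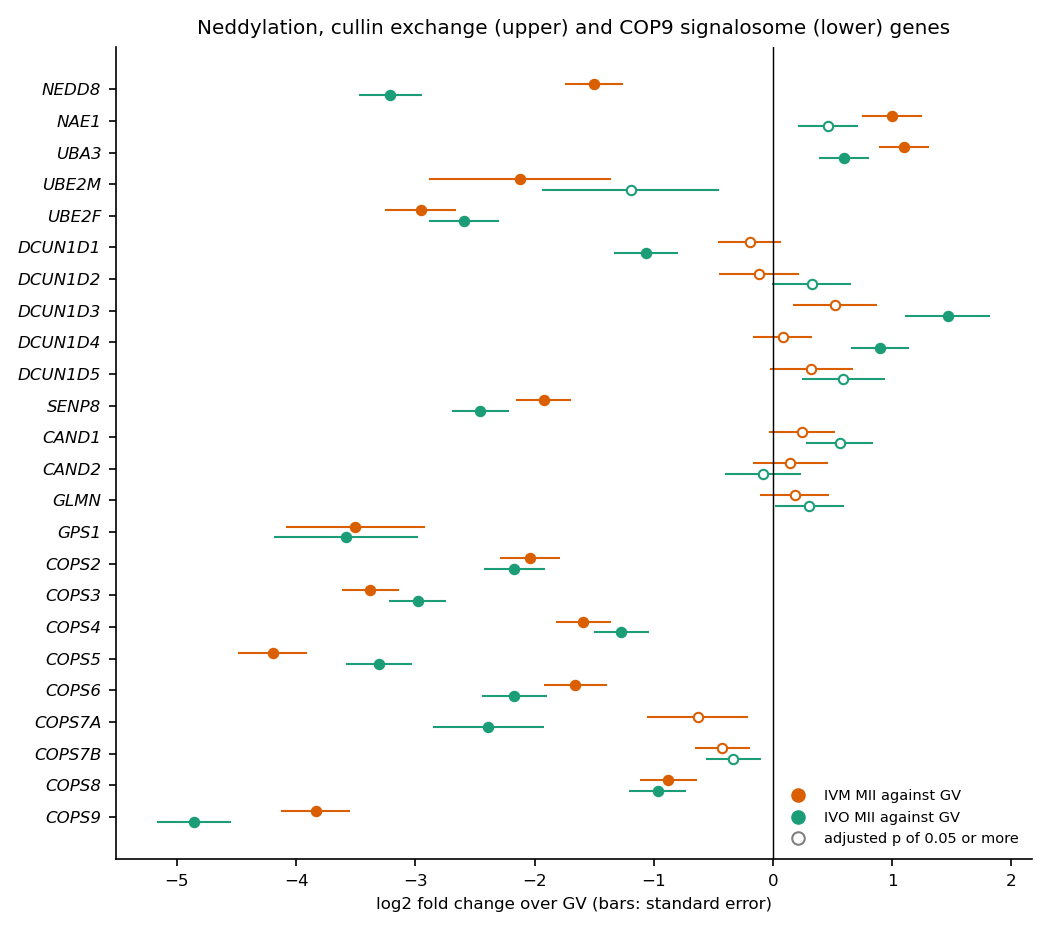
Log2 fold change over GV, with its standard error, of 14 neddylation and cullin exchange genes (NEDD8 to GLMN) and 10 COP9 signalosome genes (GPS1 to COPS9), IVM MII drawn above IVO MII. Filled points have an adjusted p under 0.05. All 10 COP9 points lie left of 0 in both comparisons, 8 of them filled in IVM MII and 9 in IVO MII, while the upper genes lie on both sides.

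Among the other cullins and their adaptors, IVM MII had 6 of 16 tested genes higher and 5 lower than GV, against 25.6% and 24.7% of all tested genes. IVO MII had 8 higher and 5 lower, against 28.1% and 30.5%. The medians were 0.17 against 0.06 over all tested genes in IVM MII and 0.36 against -0.07 in IVO MII. SPOP, a CUL3 adaptor, rose in both (IVM MII 1.49 ± 0.24, adjusted p = 0.000420, IVO MII 2.11 ± 0.24, adjusted p = 3.10e-05), as did CUL5 (IVM MII 1.24 ± 0.22, adjusted p = 0.000770, IVO MII 1.77 ± 0.22, adjusted p = 5.14e-05). ELOB, an adaptor subunit of CUL2 and CUL5 ligases, fell in both, at 0.370 and 0.284 CPM in IVM MII, 0.193 and 0.306 CPM in IVO MII and 4.66 and 5.04 CPM in GV (IVM MII -3.87 ± 0.45, adjusted p = 5.12e-05, IVO MII -4.25 ± 0.48, adjusted p = 2.75e-05). ELOC, an adaptor subunit of the same list, had 64.5 and 73.5 CPM in IVM MII, 59.8 and 53.1 CPM in IVO MII and 83.2 and 68.1 CPM in GV. Of the 16, KLHL12 and DDB1 were called between IVM MII and IVO MII, both lower in IVM MII. Over all tested genes 10.3% were lower, and the list median was 0.14 against 0.02. DDB1, the CUL4 adaptor, had 33.2 and 20.5 CPM in IVM MII, 51.1 and 74.1 CPM in IVO MII and 13.2 and 11.1 CPM in GV (-1.22 ± 0.28, adjusted p = 0.00929), a call lost with library totals and without IVM MII replicate 2. KLHL12, another CUL3 adaptor, had 11.1 and 17.2 CPM in IVM MII, 45.6 and 58.4 CPM in IVO MII and 33.1 and 30.7 CPM in GV, and its MII groups lay on opposite sides of GV. It was lower in IVM MII than in GV (-1.17 ± 0.26, adjusted p = 0.00317), higher in IVO MII than in GV (0.70 ± 0.26, adjusted p = 0.0334, lost under 4 alternatives with adjusted p up to 0.209), and lower in IVM MII than in IVO MII (-1.88 ± 0.27, adjusted p = 0.000531).

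F-box genes that carry other names were a small list, with 5 of 8 in the table tested. Of these 5, 2 were higher and 1 lower in each MII group than in GV. All tested genes gave 25.6% and 24.7% for IVM MII, and 28.1% and 30.5% for IVO MII. The medians were 0.15 against 0.06 over all tested genes in IVM MII and -0.20 against -0.07 in IVO MII. In IVM MII against IVO MII 1 was higher, against 14.3% of all tested genes (median 0.35 against 0.02). The beta-TrCP gene BTRC had 38.9 and 41.5 CPM in IVM MII, 37.5 and 36.0 CPM in IVO MII and 48.7 and 54.6 CPM in GV and no call. LMO7, an actin-linked scaffold protein with an F-box, had 28.8 and 31.4 CPM in IVM MII, 13.5 and 12.8 CPM in IVO MII and 7.12 and 7.61 CPM in GV. Its IVM MII libraries stood above all others, with 1.19 ± 0.23, adjusted p = 0.00359 against IVO MII and 2.03 ± 0.24, adjusted p = 5.74e-05 against GV. Cyclin F, CCNF, the founding F-box protein, had 4.00 and 2.87 CPM in IVM MII, 2.32 and 2.96 CPM in IVO MII and 8.44 and 9.10 CPM in GV. It fell in both MII groups (IVM MII -1.35 ± 0.31, adjusted p = 0.00405, IVO MII -1.73 ± 0.32, adjusted p = 0.000725). The histone demethylase KDM2A had 21.1 and 16.3 CPM in IVM MII, 12.9 and 16.6 CPM in IVO MII and 9.84 and 8.62 CPM in GV. It rose in both (IVM MII 1.02 ± 0.26, adjusted p = 0.00729, IVO MII 0.68 ± 0.26, adjusted p = 0.0437). These calls were lost under 2 and 8 alternatives.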

How the data were processed

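RNA from 3 groups of 2 oocyte libraries was reverse transcribed from oligo-dT by template switching, amplified, tagmented and read as pairs on a DNBSEQ instrument, per the labels' protocols. The deposited table holds raw counts per gene, which the authors made with featureCounts 2.0.1 over exons, without a strand option, on macFas5, per the file headers. The submitters' processing notes also name fastp, FastQC, Bowtie2 and SAMtools, with no role stated. Molecular identifiers are not named, so PCR copies count as reads, and the floor of 3 counts covers counting error only. The values after ± also hold the spread between libraries. The sum of exon bases in the deposited table gave CPM per kb.

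Library totals ran from 27707021 to 35515139 counts. Genes were kept by edgeR's filterByExpr (15815 of 28164). TMM factors ran from 0.903 to 1.22, and edgeR 4.0.16 in R 4.3.3 fitted the quasi-likelihood model (robust, group as the only term) to all 6 libraries. Each comparison was two-sided and adjusted by Benjamini and Hochberg over all tested genes at 0.05, with no fold threshold. The fit had 3 residual and a median of 8.81 prior degrees of freedom and a biological coefficient of variation of 0.232. The procedure was tested on simulated data in which few genes were changed, in IVM MII only and as many up as down. That test could not check the scaling where many genes differ, as they do against GV. The genes of the set, the gene lists and the tests were chosen with earlier results of these data known, so counts over them are descriptions.

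Values in every library are given for SKP1, SKP2, CUL1 and RBX1, for genes called between IVM MII and IVO MII, for the 8 largest called changes of each comparison with GV and for the 5 highest genes per kb in any group. Other genes of the set are given by group means, ranges or counts, and each list by up to 3 called genes per direction, with 1 gene of the set counted but not reported here, and with COPS7B, CAND1, BTRC, CKS1B, CDKN1B and others outside this rule named after their values were seen. A RefSeq gene table of another assembly named 721 of the 11294 genes that carry LOC identifiers, and gave names only. ELOB, ELOC, DCAF1 and COPS9 stand under older symbols in the table.

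The 14 alternatives were RLE factors, library totals, DESeq2 1.42.0, no low-count filter, a strict filter (10 CPM in at least 2 libraries), a fit to the 4 libraries of a comparison, replicate number as a block, an offset for the trend of fold change with gene length, and 6 fits that each left out a library. Where a library was left out, the lone library of its group was assumed to vary like the others. No sequence is printed, since none was among the sources used here. Figures were drawn with matplotlib 3.10.9.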

Additional observations from a re-analysis of the deposited data

Results flagged for a closer look

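KLHL12, a CUL3 adaptor from the list of other cullins, was lower in IVM MII than in GV and higher in IVO MII than in GV, and these changes differed by -1.88 on the log2 scale. The difference was tested as IVM MII against IVO MII (edgeR, adjusted p = 0.000531), with both IVM MII libraries below, and both IVO MII libraries above, both GV libraries. The difference between IVM MII and IVO MII kept its call under all 14 alternatives, with log2 fold changes of -2.23 to -1.56. The rise in IVO MII over GV was less stable (0.70, edgeR adjusted p = 0.0334), and its call was lost under 4 alternatives.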

How the results depend on the processing

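Of the called genes of the set, 4 of 11 in IVM MII against IVO MII, 16 of 24 in IVM MII against GV and 19 of 29 in IVO MII against GV kept their calls under every alternative that could test them. No called gene of the set changed sign. Beside the called genes, SKP1, SKP2, CUL1 and RBX1 were followed through the alternatives, and signs of the other uncalled genes were not. Among these, uncalled values of RBX1 and CUL1 changed sign. RBX1 in IVM MII against GV was 0.14 with library totals, 0.29 with the length trend removed and ran from -0.39 to 0.12 with a library left out, RBX1 in IVO MII against GV was 0.23 with the length trend removed, and CUL1 in IVM MII against GV was -0.061 with the strict filter and ran from -0.013 (without GV replicate 2) to 0.50 with a library left out.

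In IVM MII against IVO MII, 1 gene of the set was higher with the length trend removed and 0 to 4 with a library left out, and 4 were lower with library totals. Over all genes, leaving out a library gave 1327 to 2094 higher and 753 to 1496 lower, library totals gave 894 lower and the strict filter 1051 lower. In IVM MII against GV, 20 genes of the set were higher with library totals and 7 lower with the strict filter, and over all genes the strict filter gave 2268 higher and 2352 lower, and leaving out a library 2580 to 4452 higher. In IVO MII against GV, the strict filter gave 13 higher and 8 lower genes of the set, beside 2727 and 2859 over all genes. The strict filter tested 8048 genes, 29 of them from the set.

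Replicates of the same number deviated with correlations of -0.144, 0.178 and -0.114 between groups, which do not show the numbers to pair the libraries, and the labels do not say whether equal numbers share an animal or a day. With the replicate number as a block, 3 genes of the set were higher and 6 lower in IVM MII against IVO MII, 12 and 11 in IVM MII against GV, and 18 and 11 in IVO MII against GV. Over all 15815 tested genes the block gave 2180 higher and 1545 lower, 3982 and 3748, and 4345 and 4670, in the same order. Depth limits the scarcest genes, 3 counts being 0.0695 to 0.116 CPM.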

Other observations

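Among the transcripts of textbook SCF substrates, more were called higher than lower in MII against GV. Of 26 listed genes 20 were tested. In IVM MII against GV 9 were called, all higher, against 25.6% higher and 24.7% lower of all tested genes (median log2 fold change 0.51 against 0.06). In IVO MII against GV 9 were higher and 2 lower, against 28.1% and 30.5% (0.44 against -0.07). In IVM MII against IVO MII 1 was called, lower, against 10.3% (-0.14 against 0.02). The cryptochrome CRY1, a substrate of FBXL21, had 183 and 173 CPM in IVM MII, 176 and 203 CPM in IVO MII and 55.3 and 55.7 CPM in GV (1.68 ± 0.21, adjusted p = 9.21e-05 in IVM MII and 1.77 ± 0.21, adjusted p = 4.28e-05 in IVO MII). IREB2, the substrate of FBXL5, had 55.7 and 55.8 CPM in IVM MII, 90.2 and 75.7 CPM in IVO MII and 29.4 and 24.2 CPM in GV (1.06 ± 0.22, adjusted p = 0.00213 and 1.63 ± 0.22, adjusted p = 9.37e-05), and cyclin E1, CCNE1, a substrate of FBXW7, 96.2 and 74.5 CPM in IVM MII, 117 and 124 CPM in IVO MII and 41.2 and 37.4 CPM in GV (1.12 ± 0.22, adjusted p = 0.00152 and 1.62 ± 0.22, adjusted p = 9.82e-05). In all 3 genes every MII library lay above both GV libraries. CCNE2 (-0.89 ± 0.35, adjusted p = 0.0441) and RRM2 (-0.61 ± 0.25, adjusted p = 0.0481) were the genes lower in IVO MII than in GV, calls lost under 9 and 8 alternatives. NFKBIA was the gene lower in IVM MII than in IVO MII (-0.83 ± 0.26, adjusted p = 0.0388), lost under 5. These are transcript levels, and the proteins were not measured.

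Genes that supply ubiquitin to SCF ligases moved in both directions. Of 14 tested, 5 were higher and 4 lower than GV in each MII group, where all tested genes gave 25.6% and 24.7% for IVM MII, and 28.1% and 30.5% for IVO MII. The medians were -0.02 against 0.06 over all tested genes in IVM MII and -0.08 against -0.07 in IVO MII. In IVM MII against IVO MII 2 were called, both higher, against 14.3% (median 0.05 against 0.02). The ubiquitin-activating enzymes UBA1 (IVM MII 1.33 ± 0.26, adjusted p = 0.00145, IVO MII 1.85 ± 0.26, adjusted p = 0.000120) and UBA6 (IVM MII 1.71 ± 0.27, adjusted p = 0.000365, IVO MII 2.08 ± 0.27, adjusted p = 6.59e-05) were higher than in GV. The polyubiquitin gene UBB was lower (IVM MII -1.57 ± 0.40, adjusted p = 0.00649, IVO MII -1.92 ± 0.40, adjusted p = 0.00160), and its IVM MII value was -1.03 without IVM MII replicate 1 and -2.34 without IVM MII replicate 2. The conjugating enzyme CDC34 was lower in IVM MII (-1.96 ± 0.54, adjusted p = 0.00980), a call lost without GV replicate 2 and without IVM MII replicate 2, with a value of -2.74 without IVM MII replicate 1. CKS2, a paralog of the SKP2 partner CKS1B, had 594 and 1032 CPM in IVM MII, 281 and 298 CPM in IVO MII and 1045 and 962 CPM in GV, higher in IVM MII than in IVO MII (1.49 ± 0.28, adjusted p = 0.00321) and lower in IVO MII than in GV (-1.79 ± 0.29, adjusted p = 0.000265).

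A row that the RefSeq gene table of another assembly names FBXO17 held 18 and 1 counts in IVM MII, 0 and 2 in IVO MII and 2 and 1 in GV, so that 1 IVM MII library held most of its counts.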
